A study of Mus musculus with 39 samples.

Results

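Whole tibialis anterior muscle of wild-type (WT, n = 3) and Tcrd-DTR (DTR, n = 3) mice was compared 1 day after injury. The genes compared were all those with 10 or more counts in at least 3 of the 6 day 1 libraries, which left 13315 of the 55011 gene symbols in the count table (24.2%). γδ T cells are lymphocytes whose receptor is built from a γ and a δ chain, and many of those that live in tissue secrete interleukin 17A (IL-17A). IL-17A binds a receptor made of the chains Il17ra and Il17rc on stromal cells, the adaptor Act1 (gene Traf3ip2) is recruited, and targets of the transcription factor NF-κB are raised, among them chemokines that draw in neutrophils. Cardiotoxin, a snake venom peptide, breaks muscle fibres down, and neutrophils and monocytes enter the tissue soon afterwards, ahead of the stem cells (satellite cells) that rebuild the fibres.

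The series held 39 mouse libraries of polyA RNA, among them a time course of injured WT and DTR muscle at days 1, 3, 7 and 14, which asked at each day how muscle depleted of γδ T cells differs from its WT control. By its name the Tcrd-DTR allele places the diphtheria toxin receptor under the gene of the δ chain constant region, so that toxin kills cells that use it. Mice of both genotypes were given diphtheria toxin by injection into the abdomen as well as cardiotoxin, so no uninjured and no toxin-free muscle entered the comparison, and neither dose nor timing of the toxin is stated by the labels. Each library was made from 2 ng of RNA of homogenised muscle, and the series' own text counts the replicates as independent biological ones. In RNA of whole tissue, fewer cells of a type and less RNA per cell cannot be told apart. In the text below a level is in CPM, counts scaled to a common effective library size, with the 3 values of a group given in the order of replicates 1, 2 and 3, a log2 change is DTR over WT, and ± after it is its standard error.

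Total counts ran from 4433021 to 5755915 in the WT and from 3782192 to 5505627 in the DTR libraries, and no replicates of a group were copies of each other. All 6 libraries carried Y-linked genes (60.8 to 117 CPM) and almost no Xist (at most 1.33 CPM). The tissue label was checked by 5 genes of muscle fibres (Acta1, Ckm, Myh4, Mylpf and Tnnt3), which summed to 110338, 79058 and 105507 CPM in WT and 92028, 43614 and 90606 CPM in DTR muscle. DTR replicate 2 stood apart from the other 5 libraries. It had the lowest sum of these fibre genes and the most genes with at least 1 count (35394, against 28407 to 31846 in the others). Its summed level of 1999 olfactory and vomeronasal receptor genes, known from sensory neurons of the nose, was 2068 CPM, against 465 to 798 CPM in WT and 998 and 1016 CPM in the other 2 DTR libraries. A set of 10 predicted genes (Gm names), picked after their values were seen, summed to 3309, 3298 and 2827 CPM in WT and 6762, 15579 and 5750 CPM in DTR muscle. All 3 DTR libraries lay above all 3 WT libraries in genes detected and in olfactory and vomeronasal level. The predicted genes separated the groups too, but they were picked with their values known, so this is no separate sign. Genes detected and the olfactory and vomeronasal level, as signs of library quality, thus moved with genotype. Their part in the differences below was not tested.

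**Figure D1:**
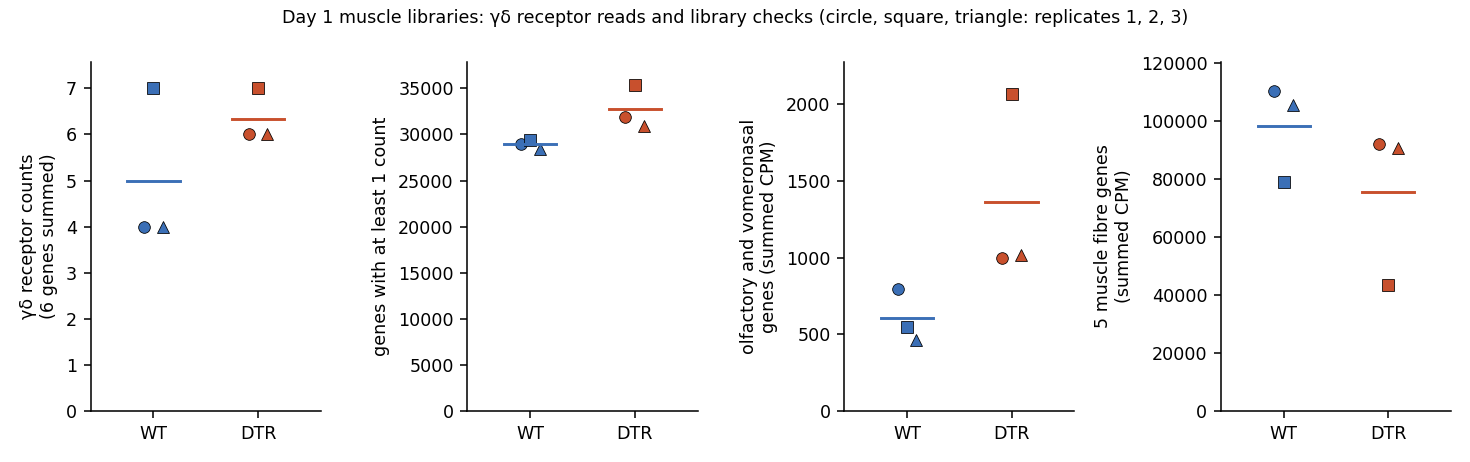
Library checks at day 1, with 1 point per library (circle, square and triangle for replicates 1, 2 and 3) and the group mean as a line. The panels show counts of 6 γδ receptor genes, genes with at least 1 count, and the summed CPM of olfactory and vomeronasal genes and of 5 fibre genes. DTR replicate 2 (square) has the most genes detected, 35394, and the highest olfactory and vomeronasal level, 2068 CPM.

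The γδ receptor genes themselves were barely sequenced, and they were not lower in the libraries labelled DTR. Summed over the δ chain genes Trdc and Trdv4 and the γ chain genes Trgv6, Trgc1, Trgc2 and Trgc4, the WT libraries held 4, 7 and 4 counts and the DTR libraries 6, 7 and 6. The groups met at 7 counts, and no library was without receptor reads. The difference was 0.288 CPM higher in DTR muscle (exact permutation test over 3 against 3 libraries, 2-sided p = 0.2, the smallest possible being 0.1). Over the pooled 15 and 19 counts the DTR to WT ratio was 1.33, with an exact binomial 95% interval of 0.639 to 2.81 that covers counting error only. Trdc alone, the gene the allele is named for, had 2, 3 and 3 counts in WT and 1, 4 and 2 counts in DTR muscle. Its ratio of 0.917 had an interval of 0.283 to 2.89. A loss to under 0.283 of the WT level for Trdc, or to under 0.639 for the 6-gene sum, lay outside counting error for these libraries. A smaller loss of either was not detectable at this depth. The name DTR below follows the labels, since these reads do not show the depletion.

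Another 4 genes of γδ and αβ T cells were as sparse. Blk, a kinase of IL-17-producing γδ T cells and of B cells, had 0, 1 and 0 counts in WT and 3, 2 and 5 counts in DTR muscle, and Il23r, the receptor that licenses IL-17 production, had 3, 0 and 2 counts in WT and 3, 5 and 1 counts in DTR muscle. Cd3d, a signalling chain of all T cell receptors, had 1, 2 and 9 counts in WT and 1, 0 and 0 counts in DTR muscle, while its partner Cd3e had 1, 4 and 5 counts in WT and 4, 4 and 3 counts in DTR muscle. Of these 4 genes only Blk had all of its DTR counts above all of its WT counts, and these were single-digit counts. Hbegf, the mouse counterpart of the toxin's receptor, stood at 93.0, 84.2 and 73.7 CPM in WT and 74.3, 91.3 and 102 CPM in DTR muscle and overlapped.

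No gene passed the test at day 1. With edgeR's quasi-likelihood test and Benjamini-Hochberg adjustment, 0 of 13315 genes (0%) had an adjusted p under 0.05, the smallest adjusted p being 0.999. At an unadjusted p under 0.05 there were 486 genes (3.65%), 258 higher (1.94%) and 228 lower (1.71%) in DTR muscle. DESeq2 called 0 genes too, with 552 at an unadjusted p under 0.05 and a smallest adjusted p of 0.366. The 3 DTR values lay above all 3 WT values for 629 genes (4.72%) and below them for 569 (4.27%). The median log2 change over all genes was −0.01, and 51.1% of genes had a value below 0.

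How large a difference could have gone unseen differed with the level of the gene. The 95% interval of the change lay within 2-fold in either direction for 7980 genes (59.9%) and within 4-fold for 12342 (92.7%). Among the 2726 genes averaging at least 50 CPM, 2555 (93.7%) had an interval within 2-fold, so that for most well-expressed genes a doubling or a halving lay outside the interval. Fitted changes beyond 2-fold numbered 443, of which 346 were higher and 97 lower in DTR muscle. The count rule for the genes compared was met by DTR libraries alone for 94 genes and by WT libraries alone for 17. Such genes entered through the group in which they had more counts, and their part in the uneven split was not tested. Across the 13144 genes with an annotated transcript, the log2 change went with the GC content of the transcript (Spearman rho −0.33) and hardly with its length (rho 0.11), a description over genes, which are not replicates.

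**Figure D2:**
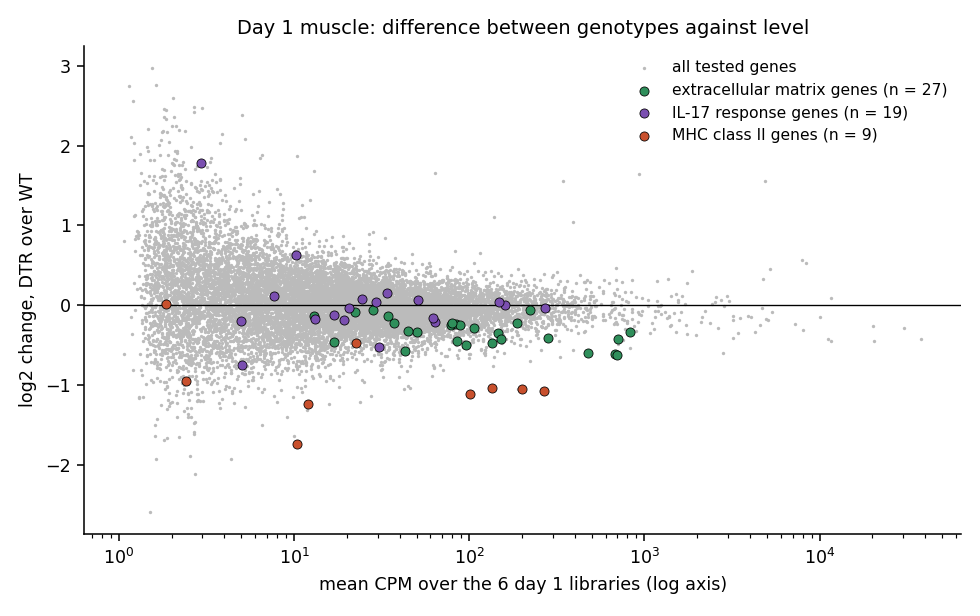
Log2 change of DTR over WT muscle at day 1 (vertical axis) against the mean CPM over the 6 libraries (horizontal log axis), with 1 grey point per tested gene and 3 gene lists coloured. The spread narrows with level, the 27 extracellular matrix genes all lie below 0, and 8 of 9 MHC class II genes lie below 0.

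The genes nearest to the threshold in each direction, with groups that did not overlap and a level of at least 5 CPM in the higher group, are given here as values that did not pass. Among those lower in DTR muscle the smallest p belonged to Cbr2, a carbonyl reductase (chromosome 11, 120729489 to 120732114), at 68.7, 70.1 and 99.3 CPM in WT and 31.0, 46.1 and 51.7 CPM in DTR muscle. Every DTR library lay below every WT library, with a log2 change of −0.89 ± 0.21 (95% interval −1.31 to −0.46, unadjusted p = 0.000187). Plekha2, an adaptor that binds membrane phosphoinositides, stood at 26.4, 25.1 and 21.6 CPM in WT and 10.3, 18.2 and 11.98 CPM in DTR muscle. Ssc5d, a secreted scavenger receptor, stood at 20.04, 17.9 and 12.7 CPM in WT and 7.78, 6.65 and 5.73 CPM in DTR muscle. Their log2 changes were −0.85 ± 0.23 and −1.32 ± 0.38. The vesicle protein gene Scamp5 (−1.50 ± 0.46) and the tetraspanin gene Tspan9 (−0.62 ± 0.19) lay lower as well, as did the MHC class II genes H2-Eb1 and Ciita described further on.

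Among those higher in DTR muscle, Pdcd4, an inhibitor of translation initiation (chromosome 19, 53892231 to 53929860), stood at 3.62, 3.40 and 4.29 CPM in WT and 8.12, 8.92 and 8.51 CPM in DTR muscle. The DTR libraries were alike and each above every WT library, with a log2 change of 1.17 ± 0.32 (95% interval 0.51 to 1.83). Tfrc, the transferrin receptor through which cells take up iron, stood at 36.7, 37.2 and 36.2 CPM in WT and 49.9, 51.8 and 69.6 CPM in DTR muscle, and the WT libraries hardly differed among themselves (0.64 ± 0.20). Snhg6, the host gene of a small nucleolar RNA, stood at 20.7, 18.6 and 20.5 CPM in WT and 30.6, 40.3 and 31.1 CPM in DTR muscle (0.77 ± 0.21). Pde1c, a phosphodiesterase of cyclic nucleotides, stood at 1.28, 1.33 and 1.59 CPM in WT and 4.23, 11.8 and 2.95 CPM in DTR muscle, with DTR replicate 2 well above the other 5 libraries (2.14 ± 0.57). Depp1, a gene induced by FOXO factors, stood at 3.84, 2.66 and 1.91 CPM in WT and 4.23, 4.75 and 21.0 CPM in DTR muscle, with DTR replicate 3 far above the other 5 libraries (1.85 ± 0.54). The mitochondrial calcium uptake gene Micu3 (1.07 ± 0.34), the kinase gene Rps6ka5 (1.44 ± 0.47) and the centrosomal gene Ccdc66 (1.09 ± 0.33) completed the 8.

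The IL-17 ligands were at the edge of detection in both genotypes. Il17a had 1 count, in WT replicate 3, and none in DTR muscle. Il17f had 5, 1 and 0 counts in WT and 1, 4 and 1 counts in DTR muscle, and Il22, a cytokine made by the same cells, had 0, 0 and 1 counts in WT and 1, 0 and 0 counts in DTR muscle. Over the 15927836 WT and 14574259 DTR counts none of the 3 told the groups apart. Il23a, the cytokine subunit that drives IL-17 production, had 9, 5 and 0 counts in WT and 5, 0 and 0 counts in DTR muscle, with no counts in WT replicate 3 and in 2 DTR libraries. Il6, Csf3, Ptgs2 and Ccl20, classical IL-17 targets, did not reach the count rule and were not tested. Il1b, which together with IL-23 licenses γδ T cells to make IL-17, stood at 8.10, 21.1 and 15.3 CPM in WT and 19.8, 26.4 and 5.55 CPM in DTR muscle and overlapped.

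The receptor and its signal chain were present at levels that overlapped between the groups. Il17ra, the shared receptor chain (chromosome 6, 120463247 to 120487559), stood at 21.7, 42.7 and 39.6 CPM in WT and 20.1, 39.5 and 29.0 CPM in DTR muscle. Its log2 change was −0.24 ± 0.40 (95% interval −1.08 to 0.60), with both groups spanning about the same range. Il17rc, the second receptor chain, stood at 21.3, 14.3 and 16.1 CPM in WT and 14.4, 23.2 and 10.9 CPM in DTR muscle (−0.09 ± 0.30), and Traf3ip2, the Act1 adaptor, at 12.2, 8.42 and 10.97 CPM in WT and 10.1, 8.16 and 8.68 CPM in DTR muscle (−0.22 ± 0.43). Traf6, the ubiquitin ligase Act1 recruits, had a log2 change of 0.01 ± 0.29. Of 12 tested genes of the receptor and adaptor list 7 had values below 0, with a median log2 change of −0.08, against 51.1% and −0.01 over all genes. Tab3, which links TRAF6 to the kinase Tak1, was the 1 gene of the list whose groups did not overlap (4.72% higher over all genes). It stood at 0.426, 1.18 and 3.97 CPM in WT and 5.41, 5.70 and 5.90 CPM in DTR muscle (1.56 ± 0.58). Its WT libraries spread widely and its DTR libraries hardly at all.

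The genes that IL-17 is known to raise showed no common direction. Of 25 listed genes 19 were tested, 9 had values above and 10 below 0, and the median log2 change was −0.04. It ranged from −0.34 without DTR replicate 2 to 0.16 without WT replicate 2. Other scalings, offsets and filters moved it between −0.17 (no filter on low counts) and 0.11 (library size alone). The median over all compared genes moved along, to −0.14 and 0.08 in these fits. The most abundant, Lcn2, the iron-scavenging lipocalin of inflamed tissue (chromosome 2, 32384633 to 32388252), stood at 314, 293 and 217 CPM in WT and 304, 96.3 and 403 CPM in DTR muscle. DTR muscle held both the lowest and the highest library (−0.04 ± 0.36, 95% interval −0.78 to 0.71). The monocyte attractant Ccl2 stood at 116, 208 and 155 CPM in WT and 123, 268 and 91.0 CPM in DTR muscle, again with the WT range inside the DTR range (0.01 ± 0.42).

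The neutrophil-attracting chemokines sit together on chromosome 5 and differed among themselves. Cxcl1 (chromosome 5, 90891241 to 90893115) stood at 8.10, 9.60 and 6.52 CPM in WT and 11.2, 15.6 and 10.8 CPM in DTR muscle, each DTR library above each WT library, with a log2 change of 0.63 ± 0.64 (95% interval −0.70 to 1.95). Its neighbour Cxcl2 stood at 3.41, 15.4 and 3.18 CPM in WT and 5.41, 10.6 and 7.98 CPM in DTR muscle (0.12 ± 0.71) and Cxcl5 at 11.5, 26.0 and 24.5 CPM in WT and 16.7, 31.9 and 12.2 CPM in DTR muscle (−0.04 ± 0.44), both overlapping. Zc3h12a, an RNase that degrades cytokine transcripts and is itself an IL-17 target, was the 1 tested gene of the response list with all DTR libraries below WT (4.27% over all genes). It stood at 6.40, 6.498 and 6.04 CPM in WT and 3.38, 4.75 and 3.12 CPM in DTR muscle (−0.75 ± 0.45). Mmp13, a collagenase, stood at 0.853, 2.36 and 0.636 CPM in WT and 1.69, 2.85 and 9.20 CPM in DTR muscle, where DTR replicate 3 alone stood far above the rest (1.78 ± 0.81). Of 17 tested genes of a wider list of TNF and NF-κB targets 12 had values below 0, with a median of −0.13.

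**Figure D3:**
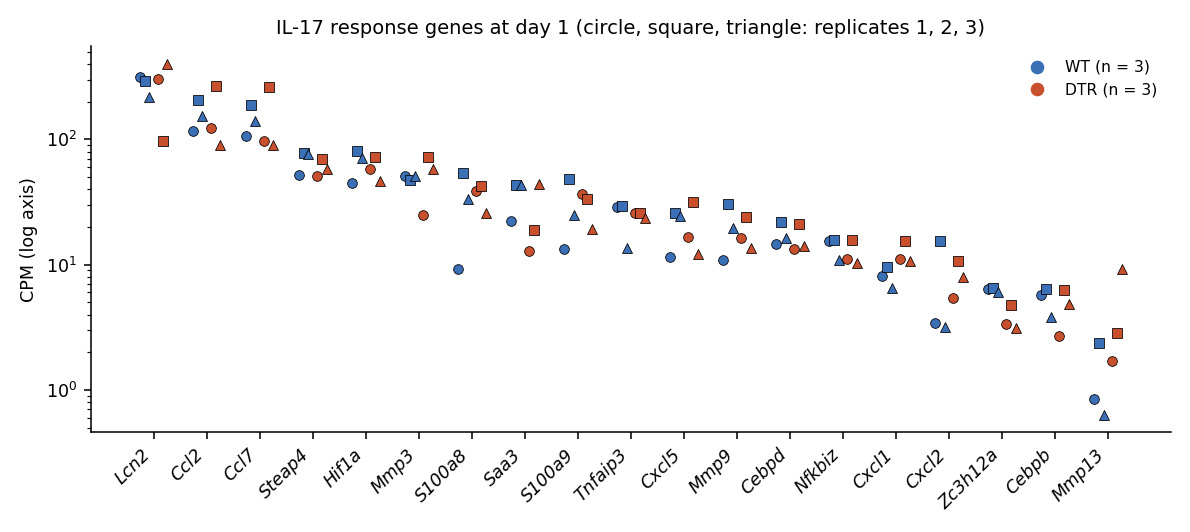
CPM (log axis) of the 19 tested IL-17 response genes in each day 1 library, blue for WT and red for DTR, with circle, square and triangle for replicates 1, 2 and 3. The groups overlap for 17 of the 19 genes, Cxcl1 lying higher (4.72% over all genes) and Zc3h12a lower (4.27%) in all DTR libraries.

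Of 18 tested neutrophil genes 9 lay below 0 and the median log2 change was 0.02. Single libraries moved this balance, with 13 below 0 and a median of −0.30 without WT replicate 1, 12 and −0.19 without DTR replicate 2, and 2 and 0.43 without WT replicate 2. S100a8, the calcium-binding alarmin of neutrophils, stood at 9.17, 53.9 and 33.2 CPM in WT and 38.7, 42.7 and 25.9 CPM in DTR muscle, with the lowest and the highest library both WT (0.15 ± 0.63). The summed level of the 20 listed genes was 299, 537 and 528 CPM in WT and 419, 587 and 427 CPM in DTR muscle. Inflammatory monocyte genes (13 tested) had a median of −0.17, which was −0.65 without DTR replicate 2 and 0.16 without WT replicate 2.

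Genes of MHC class II antigen presentation lay lower in DTR muscle without passing the test. Class II molecules are pairs of an α and a β chain on dendritic cells, macrophages and B cells. Cd74, the invariant chain, guides them to the compartment where H2-DM loads peptides, and Ciita, the class II transactivator, switches the whole set on. Of 10 listed genes 9 were tested and H2-Oa was not. Log2 changes below 0 were found for 8 of the 9, with a median of −1.06 (−0.01 over all genes). An unadjusted p under 0.05 in the lower direction was found for 6 (1.71% over all genes), and groups that did not overlap for 2 (4.27% over all genes). The list summed to 754, 1169 and 1122 CPM in WT and 253, 792 and 421 CPM in DTR muscle, so DTR replicates 1 and 3 lay below every WT library and DTR replicate 2 within the WT range.

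By role, the chains themselves came first in level. H2-Ab1, the β chain of the I-A molecule (chromosome 17, 34257689 to 34269419), stood at 278, 409 and 397 CPM in WT and 77.3, 296 and 140.4 CPM in DTR muscle, a log2 change of −1.08 ± 0.35. H2-Aa, its α chain, stood at 124, 217 and 200.1 CPM in WT and 48.2, 137 and 79.5 CPM in DTR muscle (−1.04 ± 0.31). H2-Eb1, the β chain of I-E (chromosome 17, 34305867 to 34316674), stood at 110.2, 153 and 151 CPM in WT and 35.4, 102 and 54.9 CPM in DTR muscle (−1.11 ± 0.31, 95% interval −1.75 to −0.47). For H2-Eb1 all DTR libraries lay below all WT libraries, whereas DTR replicate 2 reached into the WT range for H2-Ab1 and H2-Aa. H2-Aa was chosen after its values were seen.

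For the invariant chain, the loading genes and Ciita, DTR replicates 1 and 3 again lay below every WT library. Cd74 stood at 196, 317 and 298 CPM in WT and 70.2, 201 and 119 CPM in DTR muscle (−1.06 ± 0.30), with DTR replicate 2 just above WT replicate 1. H2-DMb1, a chain of the peptide loader that was chosen after its values were seen, stood at 11.3, 17.7 and 21.5 CPM in WT and 5.07, 12.3 and 4.17 CPM in DTR muscle (−1.24 ± 0.45), and its partner H2-DMa had a log2 change of −0.47 ± 0.35. Ciita (chromosome 16, 10480059 to 10528418) stood at 9.60, 22.6 and 16.1 CPM in WT and 5.07, 7.21 and 2.26 CPM in DTR muscle, with no overlap and a log2 change of −1.74 ± 0.50 (95% interval −2.77 to −0.72). Per kilobase of transcript the order of levels over the 6 libraries was H2-Ab1 at 219.8, Cd74 at 142, H2-Eb1 at 60.6, H2-Aa at 41.7 and Ciita at 1.74 CPM per kb. H2-Ob, a chain of the H2-O inhibitor that is known from B cells, was the 1 tested gene not below 0 (0.01 ± 0.78).

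The class II values depended on single libraries and on the filter. Their median was −0.73 without DTR replicate 1 and −1.62 without DTR replicate 2. In the latter fit edgeR's smallest adjusted p was 0.0707, shared by H2-Ab1 and H2-Eb1, with 0.0764 for Cd74. With no filter on low counts, 49812 symbols entered the edgeR fit and 17 genes passed, 6 of them class II genes, at adjusted p-values from 3.67e-05 for Cd74 and H2-Eb1 to 0.0427 for H2-Ab1. That setting also moved the median log2 change of the 13315 genes from −0.01 to −0.14.

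Since the class II genes are known to share promoter elements, the 150 bases before the RefSeq start (GRCm38.p6, 5′ to 3′ along the gene) are shown for H2-Eb1, H2-Aa and H2-Ob. H2-Eb1 and H2-Aa lay lower. For H2-Ob, at a log2 change of 0.01, the error was too wide to tell whether it lay lower as well. H2-Ab1, Cd74 and Ciita had no entry in the table. Capitals mark 2 sets of letters that were chosen after the sequences were seen and searched on both strands: GATGATG, the end of an X box, and TGATTGG, which holds the CCAAT core of the Y box in reverse. Their matches do not overlap each other here.
H2-Eb1: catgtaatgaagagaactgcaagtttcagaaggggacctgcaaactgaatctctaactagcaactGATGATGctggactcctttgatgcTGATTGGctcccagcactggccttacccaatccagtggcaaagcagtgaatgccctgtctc
H2-Aa: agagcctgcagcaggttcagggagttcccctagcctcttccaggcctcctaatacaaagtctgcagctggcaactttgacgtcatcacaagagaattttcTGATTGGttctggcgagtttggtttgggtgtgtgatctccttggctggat
H2-Ob: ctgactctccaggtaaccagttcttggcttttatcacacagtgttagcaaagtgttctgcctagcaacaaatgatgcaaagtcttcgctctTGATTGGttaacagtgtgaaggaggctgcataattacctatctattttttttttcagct
H2-Eb1 (chr17:34305717-34305866, plus strand) holds both, the first at bases −85 to −79 and the second at −61 to −55 from the start. H2-Aa (chr17:34287824-34287973, minus strand) holds the second at −50 to −44, and H2-Ob (chr17:34238755-34238904, plus strand) at −59 to −53. Of 32851 mouse promoters of 300 bases in the RefSeq table (250 before to 50 after the start), TGATTGG was found in 7.82% and GATGATG in 3.48%. Of the 7 class II genes with an entry there, 6 held TGATTGG and 3 GATGATG. H2-DMa was the 1 of the 7 with neither. A match is a description of letters and not a site shown to be used in this muscle. Only exact matches were searched, so a promoter without GATGATG was not shown to lack an X box.

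**Figure D4:**
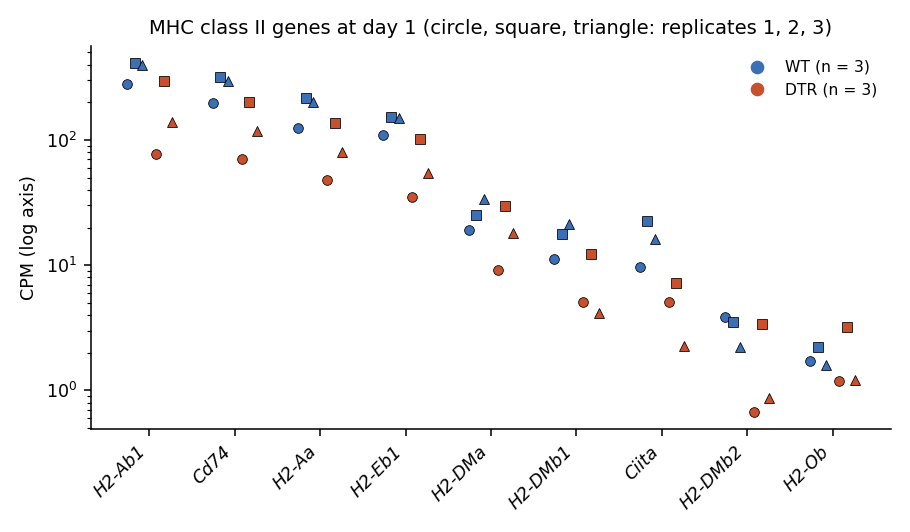
CPM (log axis) of the 9 tested MHC class II genes in each day 1 library, blue for WT and red for DTR, with circle, square and triangle for replicates 1, 2 and 3. DTR replicates 1 and 3 lie below all WT libraries for the 4 most abundant genes, and DTR replicate 2 lies near or within the WT range.

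Cells that carry class II were examined through their own genes. Of 13 tested general macrophage genes 10 lay below 0 (median −0.28), and of 16 tested genes of repair macrophages 13 did (median −0.35), 3 of them with all DTR libraries below WT (4.27% over all genes). Without DTR replicate 2 the first median was −0.64, and without WT replicate 2 it was −0.04. Adgre1, which encodes the macrophage antigen F4/80, stood at 39.9, 72.1 and 56.3 CPM in WT and 26.9, 42.9 and 25.7 CPM in DTR muscle, WT replicate 1 lying within the DTR range (−0.82 ± 0.36). C1qa, a chain of the complement component C1q that macrophages make (chromosome 4, 136895917 to 136898803), stood at 79.7, 92.7 and 98.1 CPM in WT and 32.1, 64.7 and 56.8 CPM in DTR muscle, every DTR library below every WT library (−0.82 ± 0.29). Csf1r, the receptor of the macrophage growth factor, had a log2 change of −0.67 ± 0.32 and Apoe, an apolipoprotein of lipid-laden macrophages, one of −0.65 ± 0.30.

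Other class II-bearing cells were thinly covered. Of 11 dendritic cell genes 5 were tested, 3 below and 2 above 0, with log2 changes from −1.08 to 1.39. Their median of −0.64 was 0.04 without WT replicate 2. All DTR libraries lay above WT for 2 of the genes (4.72% over all genes) and below WT for 1 (4.27% over all genes). Fscn1, the actin bundler of mature dendritic cells that other cells also express, stood at 41.2, 39.1 and 36.6 CPM in WT and 18.6, 29.4 and 23.1 CPM in DTR muscle with no overlap (−0.72 ± 0.23), while Zbtb46, the dendritic lineage factor that endothelium also uses, stood at 14.5, 14.8 and 11.9 CPM in WT and 20.6, 15 and 15.1 CPM in DTR muscle, with all DTR libraries higher (0.30 ± 0.38). Of 9 B cell genes 3 were tested. Ighm, the heavy chain of IgM, stood at 32.8, 46.5 and 106 CPM in WT and 23.7, 39.9 and 27.3 CPM in DTR muscle (−1.03 ± 0.31), with WT replicate 3 far above the rest, and the other two, Pax5 and Ighd, had log2 changes of 0.69 ± 0.87 and 0.82 ± 1.14. Cd79a and Ms4a1 did not reach the count rule.

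Markers of tissue-resident macrophages, picked after their values were seen, had log2 changes below 0 without passing the test. Lyve1, the hyaluronan receptor of perivascular macrophages and lymphatics, stood at 21.3, 25.1 and 52.9 CPM in WT and 7.78, 13.1 and 22.04 CPM in DTR muscle (−1.21 ± 0.55). Folr2, a folate receptor of resident macrophages, stood at 10.2, 10.2 and 11.1 CPM in WT and 1.18, 8.16 and 5.03 CPM in DTR muscle, with no overlap (−1.14 ± 0.53). Cd209f, a C-type lectin gene, stood at 24.5, 23.8 and 65.0 CPM in WT and 6.09, 19.9 and 25.5 CPM in DTR muscle (−1.14 ± 0.50). DTR replicate 1 was the lowest library for all 3, and for Lyve1 and Cd209f DTR replicate 3 lay within the WT range. The lipid transfer gene Pltp (−1.01 ± 0.30) and the endosomal nuclease gene Pld4 (−0.90 ± 0.33), also picked afterwards, had no overlap.

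Extracellular matrix genes lay below 0 as a whole list, with 1 library far below the rest. All 27 tested genes had log2 changes below 0 (51.1% over all genes), from −0.62 to −0.06 with a median of −0.33, and for 8 the groups did not overlap (4.27% over all genes). Their summed level was 6005, 6184 and 6473 CPM in WT and 3225, 5148 and 5469 CPM in DTR muscle, DTR replicate 1 being far below the other 5 libraries. Without that library the median was −0.14 and 22 of 27 lay below 0. Col1a2, a chain of the fibrillar collagen I, stood at 834, 764 and 937 CPM in WT and 350.5, 588 and 707 CPM in DTR muscle (−0.62 ± 0.30), with DTR replicate 1 lowest and replicate 3 close to WT. Its partner Col1a1, added after its values were seen, had a log2 change of −0.61 ± 0.30. Col5a1, which nucleates collagen fibrils, stood at 49.0, 52.9 and 52.0 CPM in WT and 21.99, 37.4 and 44.3 CPM in DTR muscle (−0.57 ± 0.27), and the matricellular gene Sparc at 944, 879.5 and 959 CPM in WT and 514, 832 and 852 CPM in DTR muscle (−0.34 ± 0.23).

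Listed genes of the cells that make this matrix went with DTR replicate 1 in the same way. Of 12 tested genes of fibro-adipogenic progenitors, the mesenchymal cells of muscle, 11 lay below 0 (median −0.31), and 6 did without DTR replicate 1 (median −0.07). Without WT replicate 3 the median was −0.10. The defining markers had values near 0, with Pdgfra at −0.00 ± 0.26 and Cd34 at 0.02 ± 0.23. Smoc2, a matricellular protein, was lower with no overlap, at 94.7, 90.8 and 109 CPM in WT and 55.3, 68.5 and 84.9 CPM in DTR muscle (−0.50 ± 0.20). Tendon cell genes (7 tested, median −0.28) summed to 1519, 1189 and 1404 CPM in WT and 571, 1287 and 1389.8 CPM in DTR muscle. DTR replicate 1 again lay far below the rest, and without it the median was 0.07. Of 16 matrix proteases and inhibitors 10 lay below 0 (median −0.15). Mmp2, the gelatinase A of fibroblasts, stood at 172, 166 and 182 CPM in WT and 67.5, 116 and 165 CPM in DTR muscle with no overlap (−0.58 ± 0.34).

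Cell cycle genes lay lower at low levels. Of 25 tested genes 21 had values below 0, with a median of −0.34 (−0.19 without DTR replicate 1 or WT replicate 2). Plk1, the mitotic kinase (chromosome 7, 122159439 to 122169873), stood at 4.69, 4.43 and 3.02 CPM in WT and 0.338, 1.52 and 1.39 CPM in DTR muscle, no DTR library reaching a WT library (−1.89 ± 0.54). Ccna2, the cyclin of S phase and mitotic entry, stood at 7.25, 7.83 and 6.99 CPM in WT and 2.54, 5.32 and 5.03 CPM in DTR muscle, also with no overlap (−0.78 ± 0.33). The replication helicase gene Mcm6, more abundant, stood at 47.8, 60.4 and 46.4 CPM in WT and 26.0, 62.3 and 48.8 CPM in DTR muscle and overlapped (−0.18 ± 0.30). Summed over 27 genes the level was 407, 470.5 and 414 CPM in WT and 278, 496 and 377 CPM in DTR muscle, so that only DTR replicates 1 and 3 lay under the WT range and replicate 2 lay above it.

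Genes of the myogenic lineage overlapped between the genotypes. Pax7 and Myf5, markers of quiescent satellite cells, did not reach the count rule. Myod1, the factor of activated myoblasts (chromosome 7, 46376474 to 46379099), stood at 140.1, 92.1 and 85.0 CPM in WT and 87.8, 79.7 and 100.7 CPM in DTR muscle, with all but WT replicate 1 within a narrow range (−0.24 ± 0.21). Myog, the factor of differentiation, stood at 41.4, 24.4 and 20.2 CPM in WT and 53.8, 47.1 and 18.7 CPM in DTR muscle, and DTR replicate 3 was the lowest library while the other 2 were the highest (0.49 ± 0.35). The 14 tested satellite cell and myoblast genes had a median of −0.17, with 9 below 0. Of 10 developmental fibre genes 7 lay above 0, with a median of 0.43 that was −0.24 without DTR replicate 1. Actc1, the cardiac actin made in regenerating fibres, stood at 152, 135 and 477 CPM in WT and 175, 119 and 75.0 CPM in DTR muscle, WT replicate 3 standing far above the other 5 libraries (−1.05 ± 0.41).

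Mature fibre genes followed DTR replicate 2. Their sum was 223027, 164421 and 215169 CPM in WT and 209235, 95114 and 186713 CPM in DTR muscle, and the median of 25 tested genes was −0.19, or 0.04 without DTR replicate 2. Acta1, skeletal actin, stood at 49502, 34645 and 46411 CPM in WT and 39034, 18136 and 40263 CPM in DTR muscle (−0.42 ± 0.36). Myh2, the myosin of oxidative fast fibres, stood at 149, 42.5 and 73.1 CPM in WT and 259, 42.5 and 261 CPM in DTR muscle (1.10 ± 0.65), a spread over both groups that leaves the interval at −0.28 to 2.48. Of 17 glycolysis genes 16 lay below 0 (median −0.22). Other scalings, offsets and filters moved this median between −0.34 and −0.07. The first came with no filter on low counts, where all compared genes had −0.14. The second came with the offset for transcript length and GC content, where they had 0.00. DTR replicate 2 held the lowest glycolysis sum, 23448 CPM against 33481 to 47905 CPM in the other libraries. Nuclear genes of the respiratory chain had a median of −0.01 over 20 genes.

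Mitochondrially encoded transcripts lay above 0 for all 11 tested genes, with a median log2 change of 0.55 (0.29 without WT replicate 1, and 0.19 with an offset for transcript length and GC content). Their sum was 15024, 28332 and 28977 CPM in WT and 36904, 23268 and 41071 CPM in DTR muscle. WT replicate 1 was the lowest library and DTR replicates 1 and 3 the highest, with DTR replicate 2 below 2 of the WT libraries. mt-Nd6, the gene of this set on the light strand, whose reads cannot be told from antisense ones since no source used here states the strand setting of the counting, stood at 36.7, 114 and 117 CPM in WT and 139.6, 129 and 154 CPM in DTR muscle, with no overlap (0.66 ± 0.29), and mt-Co1, a core subunit of cytochrome oxidase, at 3226, 7819 and 8190.3 CPM in WT and 10910.1, 5943 and 11603 CPM in DTR muscle (0.56 ± 0.32).

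Among genes of stress and metabolism, Atf3, an immediate early factor of injured fibres and macrophages (chromosome 1, 191170296 to 191218039), stood at 249.9, 339 and 237 CPM in WT and 115, 173 and 220.4 CPM in DTR muscle, every DTR library below every WT library (−0.70 ± 0.22, 95% interval −1.15 to −0.25). Of 19 tested immediate early genes, Atf3 among them, 14 lay below 0 (median −0.11), and 6 did without DTR replicate 1 (median 0.10). The heme oxygenase gene Hmox1 stood at 196, 165 and 174 CPM in WT and 98.3, 107 and 178 CPM in DTR muscle (−0.48 ± 0.21), with DTR replicate 3 inside the WT range. Chac1, a target of the integrated stress response, stood at 5.33, 4.73 and 9.54 CPM in WT and 7.44, 11.4 and 28.1 CPM in DTR muscle (1.25 ± 0.45), and Pdk4, which diverts pyruvate from oxidation, at 319, 259 and 192 CPM in WT and 306, 274 and 1003 CPM in DTR muscle (1.04 ± 0.46). In both DTR replicate 3 was the highest library by far. Of 15 fatty acid oxidation genes, the list that holds Pdk4, 13 lay above 0 with a median of only 0.09, which was −0.05 without DTR replicate 1, −0.04 without DTR replicate 3, −0.02 without WT replicate 2 and 0.34 without DTR replicate 2. Heat shock genes had a median of −0.07 over 11, glucocorticoid response genes 0.01 over 13, and circadian clock genes −0.10 over 17. Of 28 cytosolic ribosomal protein genes 21 lay above 0 (median 0.05), and 21 lay below 0 without DTR replicate 2 (median −0.06). With no filter on low counts 23 lay below 0, but their median of −0.08 was above that of all compared genes in that fit, −0.14. Endothelial genes had a median of 0.04 over 14.

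Red cell genes lay mostly above 0, and complement and coagulation genes lay mostly below 0 only with DTR replicate 1 included. Of 7 tested red cell genes 6 lay above 0, with a median of 0.48 that was 0.16 without DTR replicate 1 and 0.22 without WT replicate 1. Hbb-bs, a β-globin, stood at 40.7, 86.8 and 72.2 CPM in WT and 136, 84.5 and 58.0 CPM in DTR muscle and overlapped (0.48 ± 0.60). Its near-identical neighbour Hbb-bt, whose reads the counting could have shared with it, was the 1 gene of the list with no overlap (4.72% higher over all genes). Hbb-bt stood at 1.71, 5.32 and 4.93 CPM in WT and 10.49, 7.97 and 5.90 CPM in DTR muscle (1.00 ± 0.57). F3, tissue factor, which starts coagulation, stood at 6.40, 8.86 and 6.52 CPM in WT and 4.23, 3.61 and 2.95 CPM in DTR muscle, with no overlap (−1.01 ± 0.40). It belongs to a list of 12 tested complement and coagulation genes, of which 10 lay below 0 (median −0.23). Without DTR replicate 1 only 4 did (median 0.07). Among 10 adipocyte genes (median 0.07), Fabp4, a fatty acid carrier of adipocytes and endothelium, stood at 129, 121 and 128 CPM in WT and 168, 174 and 155 CPM in DTR muscle (0.40 ± 0.19). Adipoq, the adipokine adiponectin, stood at 10.2, 9.89 and 20.5 CPM in WT and 26.9, 26.6 and 20.7 CPM in DTR muscle (0.86 ± 0.73). Both had all DTR libraries above WT (4.72% over all genes).

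**Figure D5:**
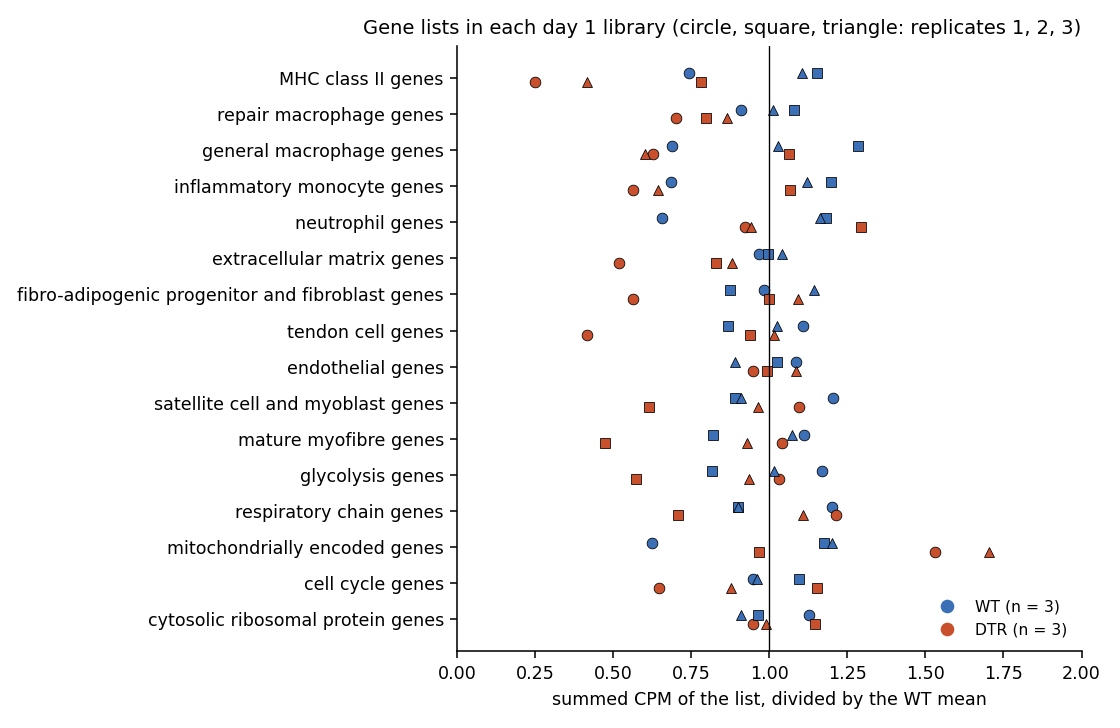
Summed CPM of 16 gene lists in each day 1 library divided by the mean of the 3 WT libraries (horizontal axis, 1 marked by a line), blue for WT and red for DTR, with circle, square and triangle for replicates 1, 2 and 3. DTR replicate 1 (circle) is lowest for MHC class II, matrix, fibroblast and tendon genes, and DTR replicate 2 (square) for myofibre and glycolysis genes.

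The day 1 difference was set against that at day 3, the next sampled day. A test of the difference between both differences called 0 of 13315 genes in edgeR (577 at an unadjusted p under 0.05, 4.33%) and 0 in DESeq2 (667). The median over all genes was −0.00 at day 3. MHC class II genes had a median of −0.30 at day 3, with 9 of 9 below 0, against −1.06 at day 1, and for Cd74 the difference between the days was −0.91 ± 0.42, which did not pass. Matrix genes had a median of 0.01 at day 3, fibro-adipogenic genes 0.30 and tendon genes 0.26. For Gsn, the actin-severing gelsolin that is abundant in fibroblasts, the change was −0.19 ± 0.32 at day 1 and 1.24 ± 0.33 at day 3, a difference of −1.43 ± 0.46. Interferon-stimulated genes had a median of −0.10 over 17 genes at day 1 and −0.91 at day 3. The day 1 value rested on single libraries, at −0.57 with 16 genes below 0 without DTR replicate 2 and 0.21 with 3 below 0 without DTR replicate 1. Rsad2, the antiviral viperin, stood at 7.25, 13.7 and 13.7 CPM in WT and 10.1, 24.9 and 11.3 CPM in DTR muscle at day 1 (0.40 ± 0.31, against −1.04 ± 0.28 at day 3). Among the smallest p-values of that test, picked after they were seen, were Cd209f, with −1.14 ± 0.50 at day 1 and 2.42 ± 0.62 at day 3, and Ltbp4, which tethers latent TGF-β in the matrix, with −0.57 ± 0.20 and 0.58 ± 0.20. Neither passed, the smallest adjusted p being 0.982.

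The same contrast in cells sorted as satellite cells, from injured muscle of both genotypes at day 1, came from another experiment of the series. Over the 11147 genes tested in both, 0 passed there in edgeR, and the median log2 change was 0.02. Cell cycle genes had a median of −0.34 in muscle and −0.35 in satellite cells, with 24 of 25 below 0 in the latter (47.1% over all genes). Plk1 had a log2 change of −0.43 ± 0.40 and Ccna2 one of −0.36 ± 0.21 in satellite cells. Matrix genes had a median of 0.11 there, 7 of 27 lying below 0, and Myod1 a change of −0.25 ± 0.15. Interferon-stimulated genes had a median of 0.86 in satellite cells. Mature fibre genes had a median of 2.71 in these sorted cells, with 0 of 16 below 0, and tendon genes 0.60, with 0 of 7 below 0. The sorted libraries of the genotypes thus differed in fibre transcripts, and the part of this in the other lists was not tested. Cytosolic ribosomal protein genes had a median of −0.21, with 28 of 28 below 0. Whether muscle and satellite cells differ in these changes was not tested.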

How the data were processed

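The values analysed are the raw counts per gene symbol that the authors deposited. Per the submitters' processing notes, the tools named are STAR 2.7.3a, Subread 2.0.0 and featureCounts, and the build is mm10. Kit, gene models, strandedness and the treatment of duplicate or multi-mapping reads were not given in the sources used here, so near-identical and antisense genes are uncertain. The 6 day 1 libraries were grouped by their labels.

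From these counts, genes with 10 or more counts in at least 3 of the 6 day 1 libraries were kept. One mean per genotype and day was fitted over the 23 WT and DTR muscle libraries of the time course, which share an estimate of the spread, with edgeR 4.0.16 in R 4.3.3 (TMM scaling, robust quasi-likelihood F-test). The contrast was DTR minus WT at day 1. A gene was called at a Benjamini-Hochberg adjusted p under 0.05 over all 13315 genes, with no minimum fold. Its 95% interval came from the same test. The difference from day 3 was a contrast in the same fit, and satellite cells were fitted on their own. The γδ receptor sum was compared with an exact permutation test. Positions and transcript lengths (the longest transcript of each gene) came from GENCODE M21 (GRCm38, the assembly of mm10), promoters from RefSeq (GRCm38.p6). The script was tested on simulated counts. Counts may hold PCR copies, and counting intervals cover counting error only.

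Named genes were up to 8 in each direction with the smallest unadjusted p among genes with no overlap between the groups and a mean of 5 CPM or more in the higher one. This left out predicted genes (Gm or Rik names), accession names and olfactory or vomeronasal receptors. To these were added a fixed set (γδ receptor genes, IL-17 ligands, receptors and targets, myogenic factors, Hbegf) and, in each of 47 lists (639 symbols, 536 tested), the 2 genes with the smallest p and the 2 most abundant. Other genes carry a remark that they were picked afterwards, or complete the count of a described list. A few genes that this rule names are not reported here. The genes compared and the lists were chosen with earlier results of these data known. Alternatives were DESeq2 1.42.0, edgeR with DESeq2's size factors or with library size only, the filterByExpr filter or none, the 6 libraries alone, an offset for transcript length and GC content, the replicate number as a block, and each library left out in turn.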

Additional observations from a re-analysis of the deposited data

How the results depend on the processing

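No gene was called at day 1 in any of the 6 fits that each left out 1 library (450 to 782 genes at an unadjusted p under 0.05, the 782 without DTR replicate 2), nor with other scalings, the length and GC offset, the 6 libraries alone or DESeq2. With no filter on low counts 17 genes passed (15 lower and 2 higher, the latter the predicted genes Gm10718 and Gm10719, all among the 13315) and 2307 of 49812 had an unadjusted p under 0.05. With the filterByExpr filter (18264 genes) 0 passed and 778 had one. For the day 1 minus day 3 difference 17 genes passed with no filter, and 2792 (no filter), 885 (filterByExpr) and 525 to 733 (1 library left out) had an unadjusted p under 0.05. The cause of the calls without a filter was not tested. Summing Trdc alone in place of the 6 receptor genes turned the difference to −0.0235 CPM (exact permutation test, p = 1), and the 6-gene difference was 0.184 to 0.381 CPM with 1 library left out. With the replicate number as a block 0 genes passed (586 at an unadjusted p under 0.05, smallest adjusted p 0.166 in edgeR), and 0 with the block and the offset together (529). The day 1 minus day 3 difference had 0 and 775 with the block. Whether the numbers mark a shared batch is not stated by the labels. Over all genes same-numbered libraries deviated together with correlations of 0.02, 0.20 and −0.00, and not every library correlated best with its own number. Such correlations cannot settle a pairing for single genes. The block lowered edgeR's unadjusted p for Cd74 from 0.00165 to 6.22e-05 and for H2-Aa from 0.00290 to 4.24e-05, and that of H2-Ob was 0.936 with it. Of 174 named genes 106 kept the sign of their change under all settings and 10 passed under some setting, all of them with no filter. Of 46 list medians 14 kept their sign throughout. The settings themselves moved the median over the 13315 genes between −0.14 (no filter) and 0.08 (library size only). Depth limited the γδ receptor and cytokine genes, which had single-digit counts.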
